A study of Arabidopsis thaliana with 4 samples.

Results

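HIS1-3, COR47 and LTI30 are 3 Arabidopsis genes linked to drought and cold. Their probe sets were picked by gene symbol, and each symbol matched 1 probe set, so they make up 3 of the 13513 probe sets that the platform table pairs with 1 gene. HIS1-3 (AT2G18050, on chromosome 2) encodes a linker histone that is induced by drought and abscisic acid. COR47 (AT1G20440, on chromosome 1) and LTI30 (AT3G50970, on chromosome 3) encode dehydrins. Per the gene table, COR47 is also called RD17 and LTI30 is also called XERO2, and each lies next to another dehydrin gene, ERD10 beside COR47 and XERO1 beside LTI30.

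Linker histones bind the DNA that enters and leaves the nucleosome and help to compact chromatin. The drought-inducible variant HIS1-3 is smaller than the main linker histones and is known for its induction under water deficit and low light. Dehydrins are hydrophilic, largely unstructured proteins that accumulate in dehydrated or cold tissue, where they bind membranes and protect other proteins. Their genes are classical targets of the CBF factors, which act in the cold, and of abscisic acid signalling, which acts in drought.

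The series measured RNA from whole Arabidopsis plants on ATH1 arrays in 4 groups of 1 array each, in a study of DNA break repair in end joining mutants. The groups were the ku80 line with bleomycin, ku80 without bleomycin, the accession Ws-2 with bleomycin and Ws-2 without bleomycin. The ku80 line carries a T-DNA insertion in AT1G48050, which encodes a subunit of the Ku complex that binds DNA ends, in the Ws-2 background. The treated plants received bleomycin, a drug that breaks DNA strands, for 3 days at a dose of 1 mg per litre. The plants had reached growth stage 1.06 on MS medium at a labelled temperature of 23, a labelled humidity of 100% and 16 hours of light, and no label names a drought, cold or abscisic acid treatment. Each array held RNA pooled from 20 plants. The pools average over plants and give no spread between pools, so differences between 2 arrays are values without a test. "Rose" and "fell" are used only of genes called by an additive fit over the 4 arrays.

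Intensities below are the deposited linear values after 1 scaling factor per array (0.976 to 1.04). A floor was set at 28.0, and a probe set above it on at least 1 array counted as measured (15336 of 22746). HIS1-3, COR47 and LTI30 exceeded the floor on each of the 4 arrays. Scanner background averaged 95.8 for ku80 without bleomycin, with a noise figure (raw Q) of 3.33, against 105 to 107 and 3.71 to 3.88 elsewhere. The SD of the background was largest for Ws-2 with bleomycin, at 13.6 against 1.69 to 7.06 elsewhere. The ratio of 3' to 5' ubiquitin controls was 1.53 and 1.42 in ku80 with and without bleomycin, and 1.21 and 1.17 in Ws-2. No probe set was paired with AT1G48050, which leaves the insertion unchecked at the transcript level. Of the 8 root markers, 2 had a named probe set, EXPA7 and EXPA18, and each was above the floor on 1 array only.

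HIS1-3 was low on a single array, that of ku80 without bleomycin. Its scaled intensity was 96.9 in ku80 with bleomycin, 30.2 in ku80 without it, 83.9 in Ws-2 with bleomycin and 161 in Ws-2 without it. The value of 30.2 lay just above the floor, and the other 3 arrays were at least 2.78-fold brighter. From low to high the order was ku80 without bleomycin, Ws-2 with bleomycin, ku80 with bleomycin and Ws-2 without bleomycin, an order shared by 1.70% of measured probe sets.

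The steps of that order differ in size. Between Ws-2 with bleomycin and ku80 with bleomycin the step was 0.21 on the log2 scale, below the residual SD of 0.46 that the fit gave HIS1-3. The step above them to Ws-2 without bleomycin was 0.73 (1.66-fold), and the step below them was 1.47. For HIS1-3, 47.7% of the residual variance comes from its own difference of responses to bleomycin, and the rest is borrowed from probe sets of like intensity, which alone would give an SD of 0.34. For COR47 and LTI30 the own part is 0.450% and 8.88%. The residual SD serves here as a limit of size and is no spread between replicate pools. Of all measured probe sets, 0.261% (40) had ku80 without bleomycin at least 2-fold below each other array.

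**Figure D1:**
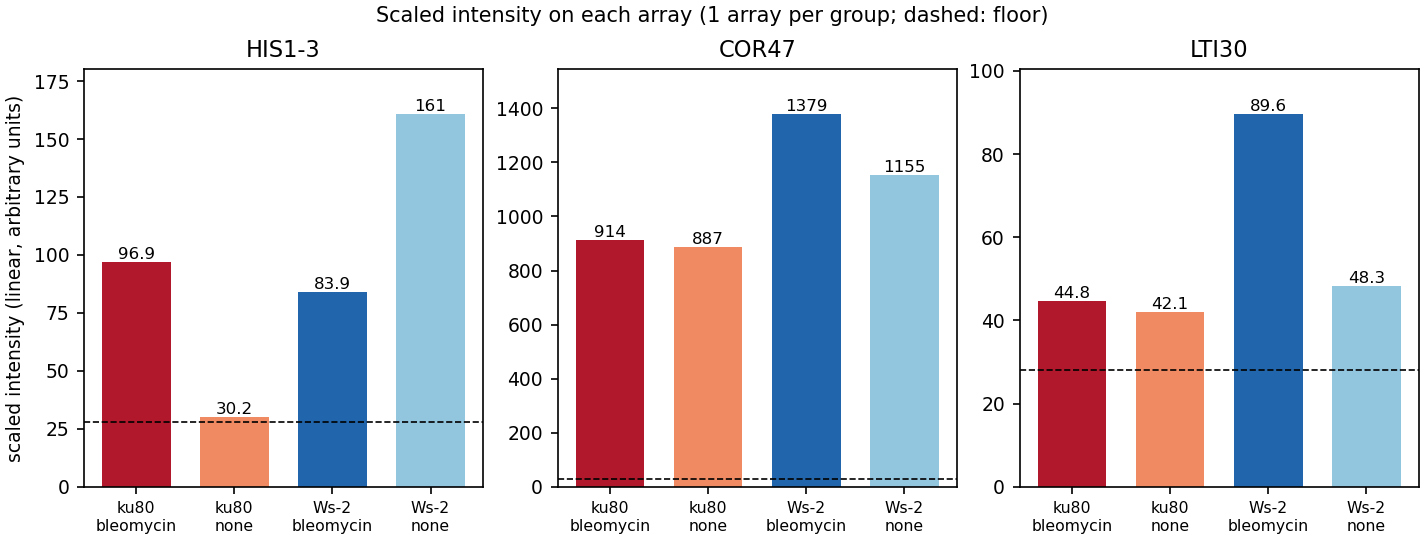
Scaled linear intensity (arbitrary units) of HIS1-3, COR47 and LTI30 on each array, 1 bar per array and group, with the floor of 28.0 as a dashed line. HIS1-3 is lowest in ku80 without bleomycin (30.2) and highest in Ws-2 without bleomycin (161), whereas COR47 and LTI30 are highest in Ws-2 with bleomycin (1379 and 89.6). Bar heights are not comparable between genes.

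With bleomycin, HIS1-3 moved in opposite directions in the 2 genotypes. In ku80 it was 3.21-fold higher with the drug (log2 1.68), and 2.49% of measured probe sets were at least 2-fold higher in that comparison. HIS1-3 was among the 106 probe sets (0.691%) that were as high or higher. In Ws-2 it was 1.92-fold lower with the drug (log2 -0.94), short of the 2-fold threshold here and exactly on it at the deposited scale, and 8.37% of measured probe sets were at least 2-fold lower. Higher in ku80 and lower in Ws-2, each by at least the residual SD, were 3.01% of measured probe sets. The reverse was seen at 3.20%, so 6.20% had opposite responses of that size in either direction.

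Subtracting the Ws-2 response from the ku80 response gave 2.62 for HIS1-3 on the log2 scale. This difference was at least 1 at 5.41% of measured probe sets, and 15 probe sets, HIS1-3 included, reached 2.62. With 1 array per group no residual is left to test this difference. Of 12 reference genes chosen for stable expression, 5 were measured, with differences of responses between -0.77 and 0.73. Not all of them were stable here. TUB6 was 2.04-fold lower with bleomycin in ku80 and 1.66-fold lower in Ws-2. GAPC2 was 1.58-fold higher in ku80 than in Ws-2 without bleomycin.

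Without bleomycin, HIS1-3 was 5.32-fold lower in ku80 than in Ws-2 (log2 -2.41). At least 2-fold lower in that comparison were 2.09% of measured probe sets, and 13 of 15336, HIS1-3 included, were as low or lower. With bleomycin HIS1-3 was 1.15-fold higher in ku80 (log2 0.21), where 1.85% of measured probe sets were at least 2-fold higher. The ku80 value near the floor limits the size: with a floor at the 50th percentile the difference without bleomycin became a bound of -1.91.

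The additive fit averages these unlike differences and called HIS1-3 for neither factor. The bleomycin effect was 0.37 (log2, SE 0.46, 95% interval -0.60 to 1.34, limma with Benjamini-Hochberg adjusted p = 0.72). The ku80 effect was -1.10 (SE 0.46, unadjusted 95% interval -2.08 to -0.13, limma adjusted p = 0.63). Over all measured probe sets limma called 2.23% that rose and 4.59% that fell with bleomycin, and 0.143% that rose and 0.104% that fell in ku80. A gene whose responses run opposite ways gets a large residual in this fit, so the missing call says little about the single differences.

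The other 2 genes of the linker histone list, AT1G06760 and AT2G30620, had another pattern. AT1G06760 was at 339 and 489 in ku80 with and without bleomycin, and at 362 and 538 in Ws-2. AT2G30620 was at 377 and 455 in ku80 with and without the drug, and at 396 and 511 in Ws-2. Both were lower with bleomycin in both genotypes, by 0.27 to 0.57 on the log2 scale, as were 31.2% of measured probe sets by any amount, and both were within 0.17 (log2) between genotypes.

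Limma called neither for bleomycin (AT1G06760 at -0.55, adjusted p = 0.29, and AT2G30620 at -0.32, adjusted p = 0.59). Of the 3 linker histone genes, 0 rose and 0 fell for either factor in limma with adjustment over all measured probe sets. Before adjustment the ku80 effect of HIS1-3 alone among them passed 0.05, as did 6.92% of measured probe sets for ku80 and 20.7% for bleomycin. For AT1G06760 and AT2G30620 the differences of responses were 0.05 and 0.10, against 2.62 for HIS1-3.

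COR47 varied little. It was at 914 and 887 in ku80 with and without bleomycin, and at 1379 and 1155 in Ws-2 with and without it. Its range over the 4 arrays was 0.64 on the log2 scale (1.55-fold), close to the median range of all measured probe sets (0.65). Both ku80 arrays lay below both Ws-2 arrays, 1.51-fold with bleomycin (log2 -0.59) and less so without it (log2 -0.38). None of its 3 steps from low to high (0.04, 0.34 and 0.26) exceeded its residual SD of 0.39.

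The response of COR47 to bleomycin was 0.04 (log2) in ku80 and 0.26 in Ws-2, neither near 2-fold. In Ws-2 its sign depended on the scaling, since quantile normalization gave -0.08. Over the 5 scaling and floor settings tried, the genotype differences ran from -0.60 to -0.37 without and from -0.59 to -0.38 with bleomycin. COR47 lay far above each floor, so only the deposited scale and quantile normalization could change their sign. Both left it negative, at -0.40 and -0.60 without bleomycin and at -0.51 and -0.38 with it. In the fit the ku80 effect was -0.49 (SE 0.39, limma adjusted p = 0.98) and the bleomycin effect was 0.15 (SE 0.39, adjusted p = 0.89).

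LTI30 stood out on the array of Ws-2 with bleomycin. It was at 44.8 and 42.1 in ku80 with and without the drug, and at 89.6 and 48.3 in Ws-2 with and without it. The 3 lower values lay within 0.20 (log2) of each other, below the residual SD of 0.33, and the step up to Ws-2 with bleomycin was 0.89. All 3 lower values were dim, less than 2-fold above the floor. The array of Ws-2 with bleomycin had the most uneven background, and the part of that background in the LTI30 value was not tested.

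LTI30 was 1.86-fold higher with bleomycin in Ws-2 (log2 0.89), where 5.55% of measured probe sets reached 2-fold higher, and 1.06-fold higher in ku80 (log2 0.09). With bleomycin it was 2.00-fold lower in ku80 than in Ws-2, where 2.35% of measured probe sets were at least 2-fold lower. That value sits on the 2-fold threshold: its log2 became -0.92 on the deposited scale, -0.80 with a pseudocount of 16 in place of the floor and -1.02 after quantile normalization. Of the 2-fold calls in this comparison 44.0% were higher in ku80, and 57.2% on the deposited scale. Without bleomycin LTI30 differed between genotypes by -0.20 (log2), again below the residual SD. The fit gave a bleomycin effect of 0.49 (SE 0.33, limma adjusted p = 0.44) and a ku80 effect of -0.60 (SE 0.33, adjusted p = 0.83).

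COR47 and LTI30 had the same order of arrays, ku80 without, ku80 with, Ws-2 without and Ws-2 with bleomycin from low to high. This order was seen at 2.48% of measured probe sets (381). For COR47 it did not hold after quantile normalization, where Ws-2 with bleomycin fell below Ws-2 without it. As profiles of log2 intensity centred on each gene's mean, COR47 and LTI30 lay 0.46 apart (Euclidean distance over the 4 arrays), while HIS1-3 lay 1.56 from COR47 and 1.79 from LTI30. HIS1-3 itself lay 1.75 from a flat profile, so by this measure it was about as far from the dehydrins as from no change at all.

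**Figure D2:**
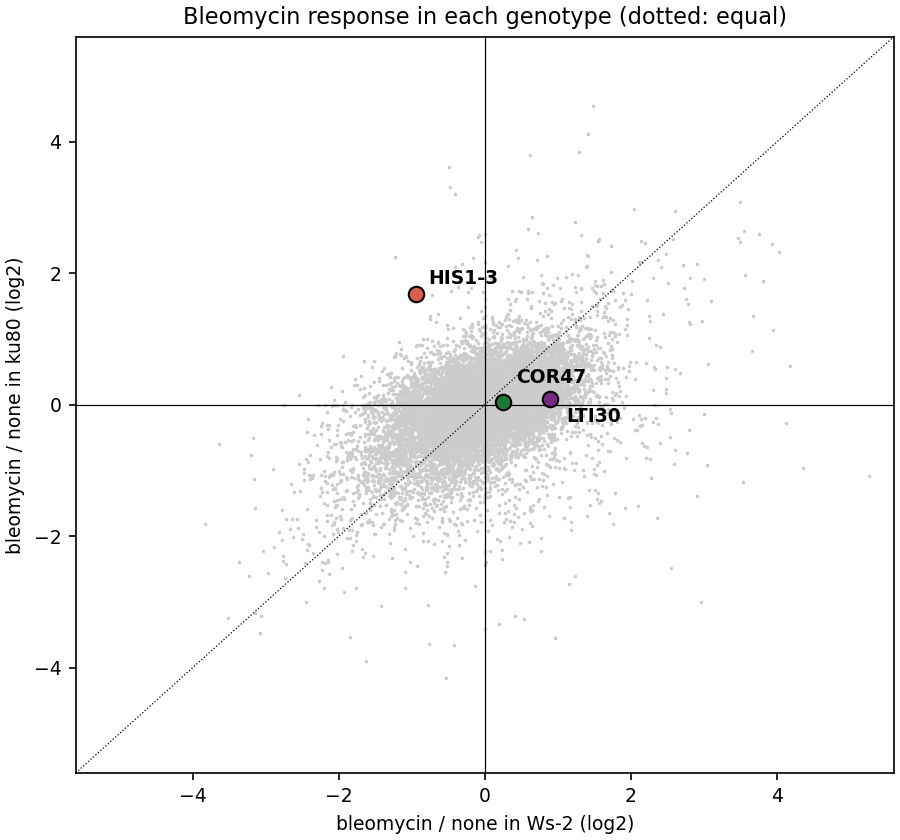
Log2 response to bleomycin in ku80 (vertical axis) against that in Ws-2 (horizontal axis) for the 15336 measured probe sets, with HIS1-3, COR47 and LTI30 marked and equal responses on the dotted line. HIS1-3 is at 1.68 in ku80 and -0.94 in Ws-2. COR47 (0.04 and 0.26) and LTI30 (0.09 and 0.89) lie near 0 in ku80.

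The dehydrin list held 10 genes, 6 of them with a named probe set and 4 of them measured, COR47 and LTI30 included. AT1G54410, which the gene table also calls HIRD11, was at 830 and 855 in ku80 with and without bleomycin, and at 925 and 927 in Ws-2, so it was nearly flat. AT4G38410 was at 32.2 and 32.7 in ku80 with and without the drug, at 50.6 in Ws-2 with it and at the floor in Ws-2 without it. Like LTI30 it was dim and was highest in Ws-2 with bleomycin, by at least 0.86 (log2) over Ws-2 without the drug. Ws-2 with bleomycin was the highest array at 27.9% of measured probe sets. LEA and AT4G39130 were below the floor on all 4 arrays.

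All 4 measured dehydrins were lower in ku80 than in Ws-2 with bleomycin, with a median of -0.62 (log2) against 0 over all measured probe sets, of which 49.0% were lower. Without bleomycin 3 of 4 dehydrins were lower, with a median of -0.16, against 49.0% of all measured probe sets. The median bleomycin response was 0.01 in ku80 and 0.56 in Ws-2, with AT4G38410 at its bound in Ws-2, against 0 for all measured probe sets in both. COR47, LTI30 and AT1G54410 were lower in ku80 in both conditions, as were 23.2% of measured probe sets. Limma called 0 of the 4 for bleomycin and 0 for genotype, and at an unadjusted p under 0.05 it also gave 0 for either. For ERD10, ERD14, XERO1 and RAB18 no probe set was named here.

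**Figure D3:**
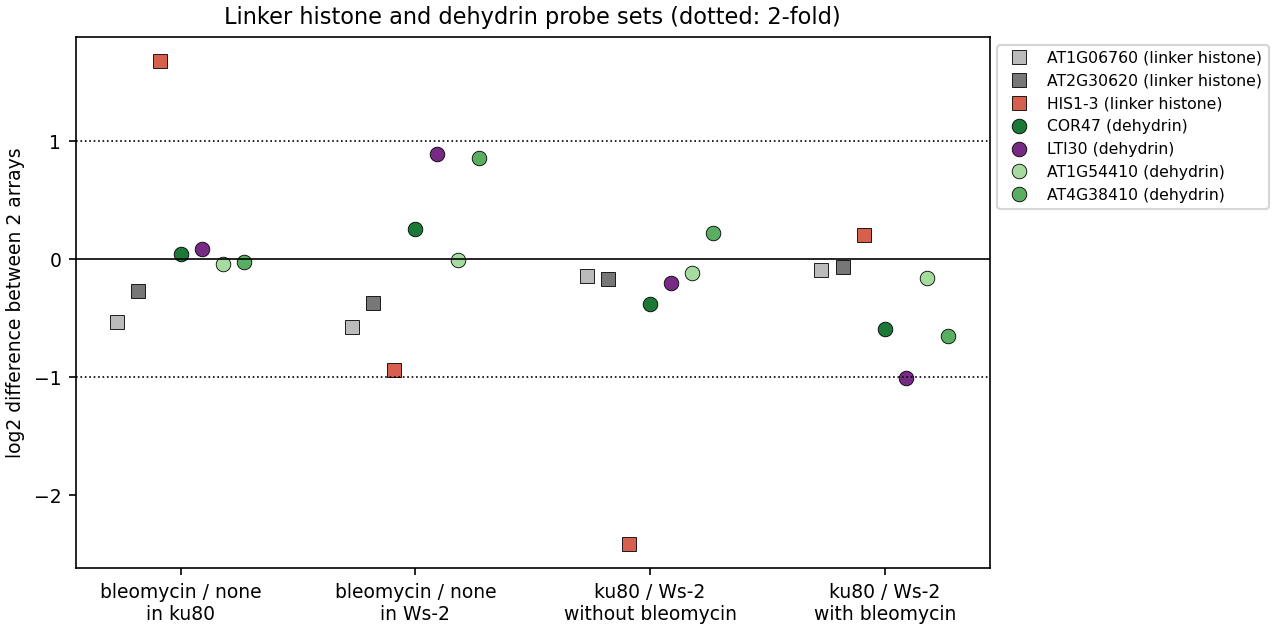
Log2 difference between 2 arrays for the 3 linker histone (squares) and 4 dehydrin (circles) probe sets that were measured, in the 4 comparisons on the horizontal axis, with dotted lines at 2-fold. HIS1-3 leaves the other linker histones in ku80 with bleomycin (1.68) and in ku80 against Ws-2 without bleomycin (-2.41). The dehydrins lie below 0 in ku80 against Ws-2 with bleomycin.

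Of the wider pathway little was named. The lists for cold and CBF factors, for abscisic acid and drought targets and for abscisic acid synthesis and signalling held 71 genes, 6 of them with a named probe set and 4 of them measured, all from the cold list. In that list limma called 2 that fell with bleomycin, against 4.59% of all measured probe sets, 0 that rose, against 2.23%, and 0 for genotype. COR15B, which encodes a chloroplast protein that protects membranes in the cold, was at 30.4 and 83.8 in ku80 with and without bleomycin, and at 28.9 and 121 in Ws-2. It fell by 1.76 (log2, SE 0.32, limma adjusted p = 0.0039), lower in both genotypes. Both values with bleomycin lay just above the floor, which limits the size. With the floor at the 50th percentile the effect was -1.23. COR15B and COR15A are close copies, so their separate values are uncertain. AT4G33980 was at 45.3 and 112 in ku80 with and without the drug, and at 54.0 and 110 in Ws-2, and fell by 1.17 (SE 0.34, limma adjusted p = 0.046).

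Both calls depended on the processing. Both effects were negative under each of the 9 alternatives of the fit, but not all of these could change an effect. Filters, the intensity trend and a left-out factor leave the effect as it is and can change only the call. COR15B was not called after quantile normalization (limma adjusted p = 0.056), with no filter (0.58) or with genotype left out (0.12), and its adjusted p ranged from 1.5e-05 to 0.58. AT4G33980 was not called under those 3 settings (0.12, 0.58 and 0.15), on the deposited scale (0.066) or with no intensity trend (0.058), and its adjusted p ranged from 0.0071 to 0.58.

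In Ws-2 alone COR15B was at -2.06 (log2) with bleomycin, beside 0.89 for LTI30. COR27, another cold-regulated gene, was 0.09 lower in ku80 and 1.11 lower in Ws-2 with the drug and was not called (limma adjusted p = 0.35). STZ, a zinc finger repressor also called ZAT10 that responds to cold, salt and drought, was at 740 and 1561 in ku80 with and without bleomycin, and at 2051 and 1337 in Ws-2. It had the opposite pattern of responses to HIS1-3, lower in ku80 and higher in Ws-2 (the 3.20% above), and was not called (adjusted p = 0.85 for bleomycin and 0.97 for ku80). COR15A and LEA4-5, a late embryogenesis abundant protein gene, were below the floor on all 4 arrays.

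**Figure D4:**
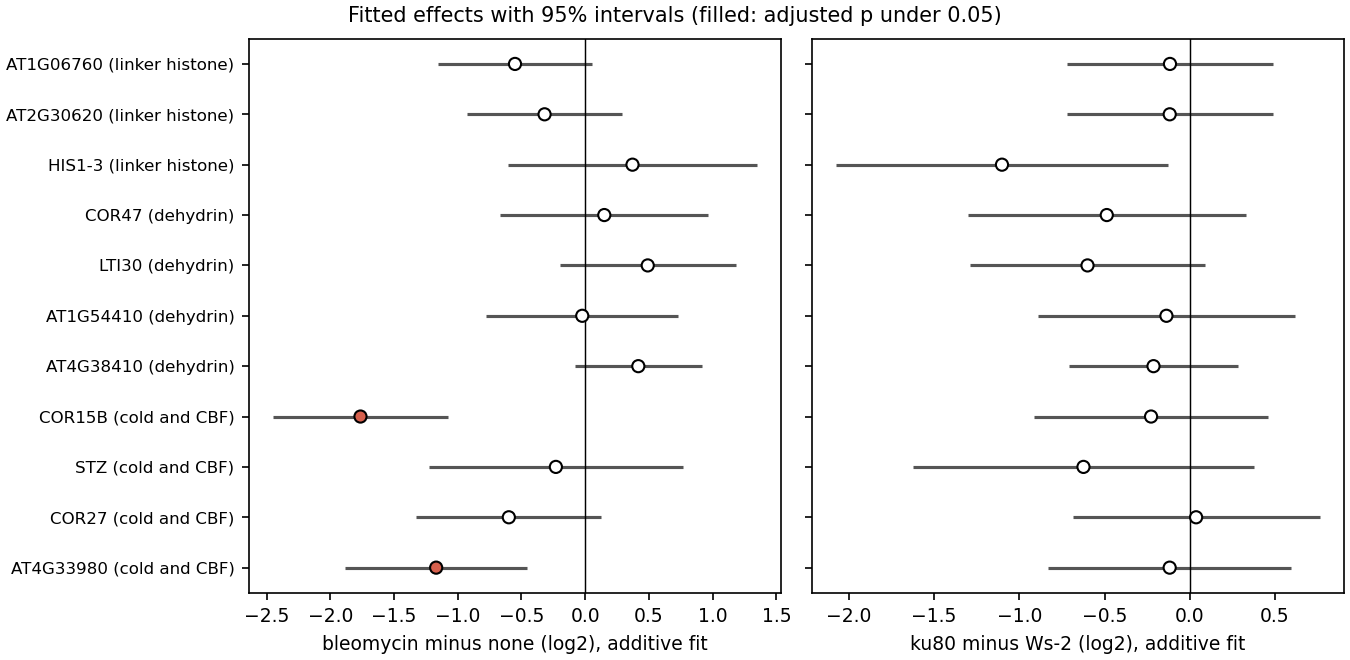
Effects of bleomycin (left) and of ku80 (right) in the additive fit, on the log2 scale with unadjusted 95% intervals, for the measured linker histone, dehydrin and cold genes. Filled points have an adjusted p under 0.05: COR15B (-1.76) and AT4G33980 (-1.17) for bleomycin, and none of these genes for ku80. The ku80 effect of HIS1-3 (-1.10) has an interval below 0 before adjustment and an adjusted p of 0.63.

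Guard cells, which close the leaf pores in drought, are a known site of linker histone HIS1-3 expression. Of 8 guard cell markers 3 had a named probe set, and SPCH and MUTE were below the floor on all 4 arrays. FMA (also called FAMA), which acts late in guard cell formation, was at 48.0 and 42.3 in ku80 with and without bleomycin, and at 34.7 and 74.4 in Ws-2. This measured marker was lowest in Ws-2 with bleomycin, unlike HIS1-3, and highest in Ws-2 without it, like HIS1-3. Its responses to bleomycin were 0.18 (log2) in ku80 and -1.10 in Ws-2. Its genotype differences were -0.81 without and 0.47 with bleomycin. These signs are the same as those of HIS1-3. The summed level of the 3 was 63.1 and 50.3 in ku80 with and without the drug, and 64.3 and 91.8 in Ws-2, a sum that includes 2 markers below the floor. The part of these markers in the HIS1-3 values was not tested. In RNA from whole plants, fewer cells of a type and less RNA per cell cannot be told apart. The 2 root markers summed to 24.5 and 48.2 in ku80 with and without bleomycin, and to 43.7 and 78.6 in Ws-2, and no seed and embryo marker was named.

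The genes nearest to each profile were taken from the 6314 named probe sets that exceeded the floor on each array. Nearest to HIS1-3 was AT3G26460, at 99.0 and 29.9 in ku80 with and without bleomycin and at 121 and 167 in Ws-2, with a distance of 0.44. The next were AT2G43535 (0.56), AT5G37990 (0.60), AT5G38020 (0.71), AT3G20370 (0.71) and AT2G18210 (0.77). All 6 were lowest in ku80 without bleomycin, by 1.68 to 2.48 (log2) against Ws-2 without it. In Ws-2 their responses ran from -0.64 to 0.01, so none was lowered by bleomycin there as much as HIS1-3 (-0.94). AT3G26460 was the 1 gene within a distance of 0.5.

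For COR47, 1276 of the 6314 probe sets lay within that distance. COR47 itself lay only 0.52 from a flat profile, so that count can take in nearly flat probe sets and does not show a common shape. The nearest were AT1G07700 (0.05), AT1G01940, AT1G12310, AT1G22140, AT4G31330 and AOP1 (0.10). For LTI30, which lay 0.87 from a flat profile, 313 lay within 0.5. Its nearest were AT1G44830 (0.09), AT4G34215, AT1G79070, AT2G34585, AT3G21080 and AT3G27210 (0.15), which were higher with bleomycin in Ws-2 by 0.75 to 0.85 and in ku80 by 0.06 to 0.23. With 4 arrays a profile has few degrees of freedom, and nearness is a description.

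**Figure D5:**
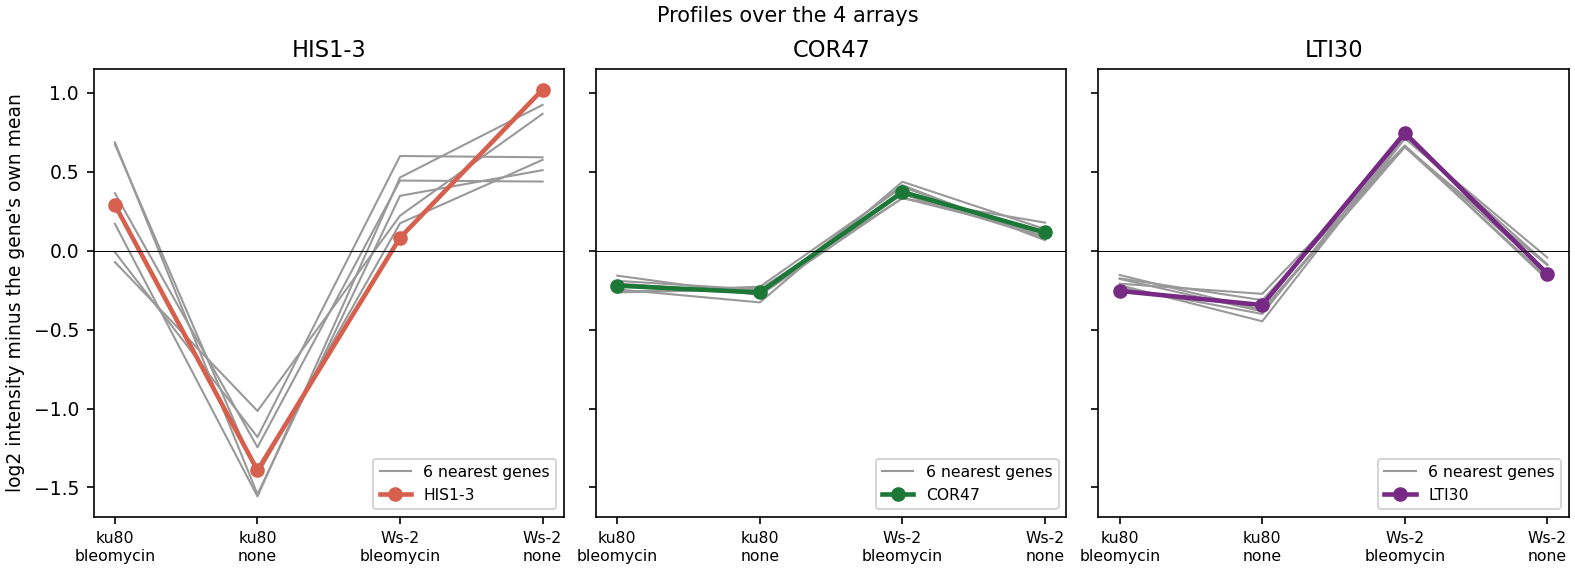
Log2 intensity minus each gene's own mean on the 4 arrays, for HIS1-3, COR47 and LTI30 (coloured) and the 6 named genes nearest to each (grey). The genes near HIS1-3 share its low value in ku80 without bleomycin, and those near LTI30 share its high value in Ws-2 with bleomycin. COR47 stays within 0.64 from lowest to highest.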

How the data were processed

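Biotin-labelled cRNA from whole plants was hybridised to 1 ATH1 array per group, per the labels' protocols. The deposited values were linear intensities for 22810 probe sets, already scaled so that the mean after trimming 2% at each end was 100.01 on each array. Which software summarised the probes, and with what background correction, is not given in the sources used here. After 64 control probe sets were set aside, each array was divided by its median ratio to the geometric mean over the brighter 50% of probe sets. Lower values were raised to a floor at the 40th percentile (28.0) before log2. Probe sets were named from the platform table, with symbols updated through a RefSeq gene table (TAIR10.1). Of 22746, 13513 had 1 gene, 503 several and 8730 none listed. An additive model of genotype and bleomycin was fitted in R 4.3.3 using limma 3.58.1 (intensity trend, Benjamini-Hochberg adjustment at 0.05 over 15336 measured probe sets). It has 1 residual and 15.9 prior degrees of freedom. The residual is the difference of responses between genotypes on these 4 arrays alone. The p-values thus set average effects against the size of such differences and measure no spread between replicate pools. On simulated arrays the fit recovered 32.0% of 1-unit and 100% of 2-unit log2 bleomycin changes, and called 5 of 15136 unchanged probe sets at either size. These shares hold for the simulated arrays and are no measure of power on the real ones. The number of arrays limits the precision. The genes, the gene lists and the rule for named genes (HIS1-3, COR47, LTI30, measured list genes and the 6 nearest profiles each) were chosen with earlier results of these data known. Other scalings, floors, filters and models were tried.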

Additional observations from a re-analysis of the deposited data

Results flagged for a closer look

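Responses to bleomycin that ran opposite ways in the 2 genotypes, each by at least the probe set's residual SD, were found at 4 of the 37 genes checked. That SD is partly built from the same difference of responses (47.7% of the variance for HIS1-3), so it sets a size and measures no spread between pools. The differences between genotypes were not tested, since 1 array per group leaves no residual. The difference of log2 responses, ku80 minus Ws-2, was 2.62 for HIS1-3 (1.68 in ku80 and -0.94 in Ws-2), 2.19 for AT3G26460 (1.73 and -0.46), 1.59 for AT2G43535 (0.94 and -0.64) and -1.70 for STZ (-1.08 and 0.62). AT3G26460 and AT2G43535 were picked for their likeness to HIS1-3, so they add no independent support. The 37 genes also include the 6 nearest profiles of each of HIS1-3, COR47 and LTI30, picked for their responses. The count of 4 in 37 is therefore shaped by that choice and is no rate to set beside all measured probe sets. Among all measured probe sets, 3.01% were higher in ku80 and lower in Ws-2 by at least that size, 3.20% were lower in ku80 and higher in Ws-2, and 6.20% were either.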

How the results depend on the processing

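Of 129 recomputed values of HIS1-3, COR47 and LTI30, 123 kept their side of the test or moved by less than the residual SD. Many of the 129 could not change in size, so this count is no measure of stability. The floor at the 20th percentile lay below all values of these genes and left each difference and effect as it was. Filters, the intensity trend and a left-out factor left the effects as they were and could change only the call. None of the 3 genes was called under any of the 9 alternatives of the fit (limma adjusted p from 0.16 to 1). With the floor at the 50th percentile, HIS1-3 was at 1.18 for bleomycin in ku80, at -1.91 for ku80 against Ws-2 without bleomycin and at 2.12 for the difference of responses, because its value in ku80 without bleomycin was raised to the floor. With a pseudocount of 16 and no floor the last 2 were -1.94 and 2.11. Quantile normalization turned the difference of responses of COR47 to 0.22, and the cause was not tested. Over all measured probe sets, 2-fold differences numbered 1241 and 2135 for bleomycin in ku80 and in Ws-2, and 708 and 645 for ku80 against Ws-2 without and with bleomycin. With the floor at the 20th percentile, which tests more probe sets, they numbered 2013, 3468, 1233 and 1306, and differences of responses of at least 1 numbered 3164 against 1654. At 3-fold they numbered 351, 556, 258 and 125. On the deposited scale, 62.8% of differences of responses of at least 1 were positive, against 50.2%. The fit in limma called 1046 probe sets for bleomycin and 38 for genotype. Quantile normalization left 175 and 0 (2995 and 888 at an unadjusted p under 0.05), no filter left 0 and 0 (1941 and 658), leaving out the other factor left 0 and 0 (2681 and 288), and no intensity trend left 467 and 1. For genotype it called 19 with the floor at the 20th percentile, 14 with the pseudocount and 122 when each array had to exceed the floor. No paired analysis was possible because each group holds 1 array, and leaving out an array leaves the additive fit no residual. Dim signal limits HIS1-3 in ku80 without bleomycin, LTI30 on 3 arrays and COR15B on both arrays with bleomycin.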
